A study of Mus musculus with 12 samples.

Results

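The inducible Hsp70 and Hsp90 chaperone system was followed in mouse bone marrow erythroblasts, the precursors of red cells, with a knock-in of cyclin E that carries the substitutions T74A and T393A. It was taken as 10 genes, and its members were the probes that the platform annotation names for them: Hspa1a, Hspa1b, Hspa8, Hsp90aa1, Hsp90ab1, Dnajb1, Bag3, Hsph1, Hspd1 and Hsf1. Of these genes 8 had a probe named for them, 16 probes in all, and all 8 were among the 9388 genes tested. Hsp90ab1 and Hsf1 had 0 probes under their symbols and are not analysed here. The knock-in erythroblasts were compared with erythroblasts of wild type littermates, both on strain background 129 and both sorted as positive for Ter119, an erythroid surface protein, and high for CD71, the transferrin receptor. RNA was read on Illumina bead arrays of 1 colour, 12 in all and 6 of each genotype, and the arrays with adjacent numbers were taken as duplicates and averaged. This left 3 knock-in samples (arrays 3 and 4, 5 and 6, 11 and 12) and 3 wild type samples (arrays 1 and 2, 7 and 8, 9 and 10), and values are given in that order. The labels give neither the age nor the number of the animals, nor whether each sample is another animal, and the p-values reflect no more than how these samples vary among themselves, which may be technical.

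Hsp70 proteins bind exposed hydrophobic stretches of unfolded proteins and release them on ATP turnover, helped by J-domain proteins that deliver the client and by exchange factors that reset the cycle. Hsp90 takes over many of the same clients, among them kinases and transcription factors, through co-chaperones. Most cells make a constitutive form of each chaperone at all times and add an inducible form when the transcription factor Hsf1 is freed by unfolded protein. In maturing erythroblasts, Hsp70 is known to protect the transcription factor Gata1 from caspase cleavage.

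Hsf1 binds repeats of the unit GAA and its reverse complement TTC, spaced by a pair of free bases. The 160 bases before the start of 5 genes whose knock-in samples all lay above the wild type samples, of which Hspa1a passed the test, and a site of the mitochondrial chaperonin Hspd1, whose genotypes overlapped, are shown so that these repeats can be read in them. Capitals mark matches to GAANNTTC or TTCNNGAA, forms that read the same on both strands; sequences are RefSeq's on build GRCm38.p6, 5′ to 3′ on the gene's strand, and end at the last base before the first listed start unless stated. A build for the array's probes was not given in the sources used here.
Hspa1a, chr17:34972157-34972316, minus strand: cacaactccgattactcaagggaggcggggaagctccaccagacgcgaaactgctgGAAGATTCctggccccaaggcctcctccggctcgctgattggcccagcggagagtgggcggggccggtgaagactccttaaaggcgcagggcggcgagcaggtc
Hspa1b, chr17:34959239-34959398, minus strand: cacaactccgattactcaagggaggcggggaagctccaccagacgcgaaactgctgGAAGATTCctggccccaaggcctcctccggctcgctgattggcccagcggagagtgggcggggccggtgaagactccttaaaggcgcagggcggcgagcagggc
Hsph1, chr5:149636337-149636496, minus strand: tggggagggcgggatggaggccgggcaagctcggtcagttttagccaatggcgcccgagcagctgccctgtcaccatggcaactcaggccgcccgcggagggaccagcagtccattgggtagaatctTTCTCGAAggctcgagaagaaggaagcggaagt
Bag3, chr7:128523423-128523582, plus strand: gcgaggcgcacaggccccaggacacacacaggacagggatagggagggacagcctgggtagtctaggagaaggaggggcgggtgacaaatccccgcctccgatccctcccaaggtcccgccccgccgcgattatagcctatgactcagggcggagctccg
Dnajb1, chr8:83608015-83608174, plus strand: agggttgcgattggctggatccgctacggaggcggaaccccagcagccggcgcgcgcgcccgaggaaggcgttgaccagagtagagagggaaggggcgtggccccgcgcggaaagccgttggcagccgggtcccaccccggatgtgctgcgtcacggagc
Hspd1, second listed start, chr1:55088053-55088082, minus strand: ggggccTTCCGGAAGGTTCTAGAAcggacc

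Within windows from 250 bases before to 50 bases after the start, the Hspa1a and Hspa1b promoters were identical at 296 of 300 positions, and both held GAAGATTC 104 bases before the start. Promoter windows were listed for 6 of the 10 genes, not for Hspa8, Hsp90aa1, Hsp90ab1 and Hsf1. A match to either form was present for 5 of these 6 genes, against 17.0% of 27025 genes with a window. The longer forms, in which a further GAA or TTC follows either of these at the same spacing, overlap the shorter ones and were present for Hspd1 and Hsph1 and for 0.662% of all genes. In Bag3 the match, and in Hsph1 the longer one, lay after the start and is not shown, and the windows of Dnajb1 held no such letters. A match is a description of the letters and no match says only that they are not in this window.

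Of 45281 probes, 15988 to 18227 an array exceeded the background limit, and the number of arrays limits the precision. Duplicate arrays differed by an SD of 0.0933 to 0.139 on the log2 scale, while other arrays of 1 genotype differed by 0.30 to 0.447. Over all genes tested, limma called 8 higher in the knock-in samples (0.0852%) and 0 lower (0%) at an adjusted p under 0.05. Arrays 1 to 4, 5 to 8 and 9 to 12 each hold 1 sample of each genotype, and a fit with these sets as a term is given beside the first; the labels do not say that they are batches. Of 12 erythroblast markers 8 had a probe, and Alas2, Hba-a1, Slc4a1, Klf1, Tfrc, Epor and Gata1 were above the limit on all 12 arrays, while Epb42 was above it on 0. Of the 7 tested, 5 were higher in knock-in, 2 lower and 0 called, with log2 changes of 0.50 for Klf1, 0.47 for Epor and 0.40 for Tfrc. Alas2, at -0.23, had every knock-in sample below every wild type sample, as had 6.47% of all genes. The summed level of the 8 in the authors' processed intensities, mostly Alas2, Slc4a1 and Hba-a1, ran from 102206 to 109741 in knock-in and from 108010 to 114286 in wild type samples. The sorted cells also held RNA of markers of other marrow cells. On the same scale the sum of 11 neutrophil markers ran from 147117 to 211091 in knock-in and from 160451 to 215964 in wild type samples, that of 10 B lineage markers from 1450 to 1747 and from 3110 to 5642, that of 7 markers of mast cells, basophils and eosinophils from 16743 to 23432 and from 24385 to 33667, and that of 8 macrophage markers from 1207 to 2764 and from 1591 to 4301. The macrophage sums were lower in knock-in within each set of 4 arrays, with 1207 against 1591, 1426 against 1788 and 2764 against 4301. Sums of 7 megakaryocyte markers ran from 366 to 515 and from 435 to 709, and of 6 T and NK cell markers from 1069 to 1867 and from 1024 to 2148. Pax5, a B lineage transcription factor, was above the limit on 0 arrays. The B lineage sum and that of mast cells, basophils and eosinophils were lower in each knock-in sample than in any wild type sample. The neutrophil sum exceeded the erythroblast sum in every sample, though sums over different probes do not measure shares of cells. The part of these other cell types in the results below was not tested.

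**Figure D1:**
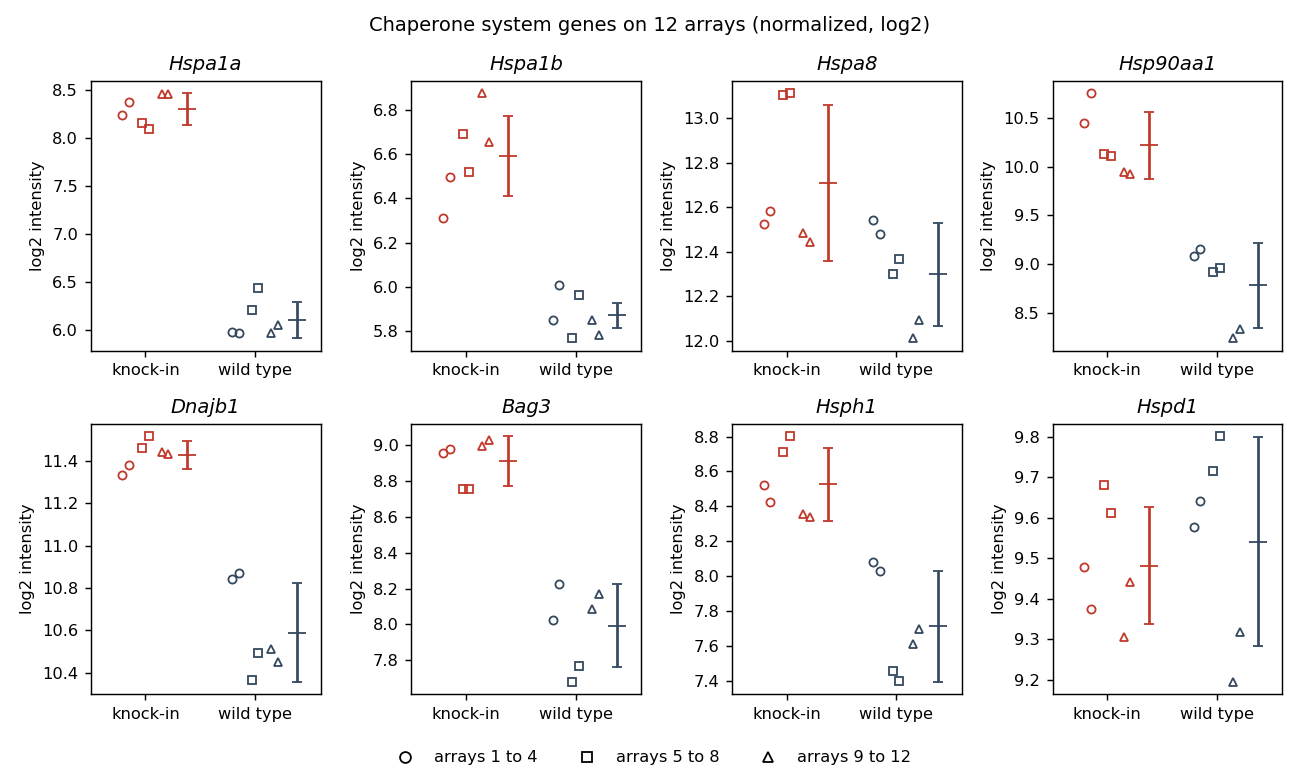
Normalized log2 intensity of 8 chaperone genes on the 12 arrays, 1 panel for each gene, knock-in left of wild type. Open symbols are single arrays, their shape shows the set of 4 adjacent arrays, and the bar beside them is the mean ± SD of 3 samples; in 6 panels (Hspa1a, Hspa1b, Hsp90aa1, Dnajb1, Bag3 and Hsph1) the knock-in samples lie above all wild type samples, and in those of Hspa8 and Hspd1 the genotypes overlap.

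Among the 8 chaperone genes Hspa1a rose in the knock-in samples and the other 7 missed the threshold. Of the 8 genes tested 7 had a log2 change above 0, as had 41.6% of all genes. In 6 of them (Hspa1a, Hspa1b, Hsp90aa1, Dnajb1, Bag3 and Hsph1) all 3 knock-in samples lay above all 3 of wild type, a pattern found for 7.23% of all genes. At an unadjusted limma p under 0.05 these 6 were higher and 0 of the 8 lower, where 5.56% and 3.09% of all genes were. With the sets of 4 arrays as a term 3 were called higher, Hspa1a, Hsp90aa1 and Bag3, against 0.671% of all genes. The median log2 change of the 8 was 0.82, that of all genes tested -0.03; the genes were chosen with earlier results of these data known, and 2 of them, Hspa1a and Hspa1b, passed the filter on dim probes only through the knock-in arrays, so these counts and the median describe them and support nothing.

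Hspa1a and Hspa1b encode the stress-inducible cytosolic Hsp70 and are near-identical neighbouring genes on chromosome 17. The deposited intensity of the main Hspa1a probe was 248.8, 278.3, 333.5, 291.6, 247.4 and 237.6 on the 6 knock-in arrays, against 1.8, 1.2, 14.1, 31.0, 0.7 and 4.0 on the wild type arrays. On the normalized log2 scale this was 8.31, 8.13 and 8.47 in the knock-in samples and 5.97, 6.32 and 6.01 in the wild type samples. The wild type sample of arrays 7 and 8, the highest of its group, held the only 2 wild type arrays above background, and the knock-in samples averaged 8.30 ± 0.17, the wild type samples 6.10 ± 0.19 (SD, n = 3 each). Hspa1a rose at least 4.34-fold, with each wild type array set to the lowest value above background or to its own where that was higher. This bound was not tested: the limma adjusted p of 0.00982 is that of the fitted log2 change of 2.20. Hspa1a was 2nd of all genes by p, and it passed the filter on dim probes only through the knock-in arrays. Within the 3 sets of arrays its log2 difference was 2.34, 1.81 and 2.46.

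The call of Hspa1a did not hold under all settings. Leaving out wild type arrays 1 and 2, knock-in arrays 3 and 4, or knock-in arrays 11 and 12 gave limma adjusted p of 0.084, 0.165 and 0.0775, with log2 changes of 2.14, 2.20 and 2.12. When background was left uncorrected, and in the authors' processed values, the fitted log2 change was 6.05 and 6.07, both resting on wild type values of which most were near the floor of 1, and the limma adjusted p was 0.119 in both.

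The main Hspa1b probe read 20.1, 30.9, 59.4, 39.4, 42.4 and 28.1 on the knock-in arrays and between -6.5 and 3.3 on the wild type arrays. It was above background on 6 of 6 knock-in and 0 of 6 wild type arrays, so that the genotypes were apart on every array. The level was at least 1.40-fold higher in knock-in samples, and the gene missed the threshold over all genes (limma adjusted p = 0.121, and 0.0687 with the sets of arrays as a term). It passed without background correction and with the authors' values (limma adjusted p = 0.00814 and 0.00863), where the wild type arrays sit at or near the floor. Since the transcripts of Hspa1a and Hspa1b are close in sequence and probe sequences are not used here, signal of one gene on a probe of the other cannot be told apart.

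The remaining Hsp70 probes were dim. A second Hspa1b probe read 30.1, 49.6, 12.2 and 24.9 on knock-in arrays 3, 4, 11 and 12, but 3.7 and 6.5 on knock-in arrays 5 and 6 and at most 6.8 on wild type arrays. A second Hspa1a probe had the same shape, with 25.5, 27.3, 14.8 and 17.1 on those 4 arrays, 6.3 and 6.2 on arrays 5 and 6, and at most 7.1 on wild type arrays, 1 of which was above background. Neither was above background on arrays 5 and 6, where the main probes of both genes were above it. The last Hspa1a probe was above background on 1 knock-in and 0 wild type arrays.

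**Figure D2:**
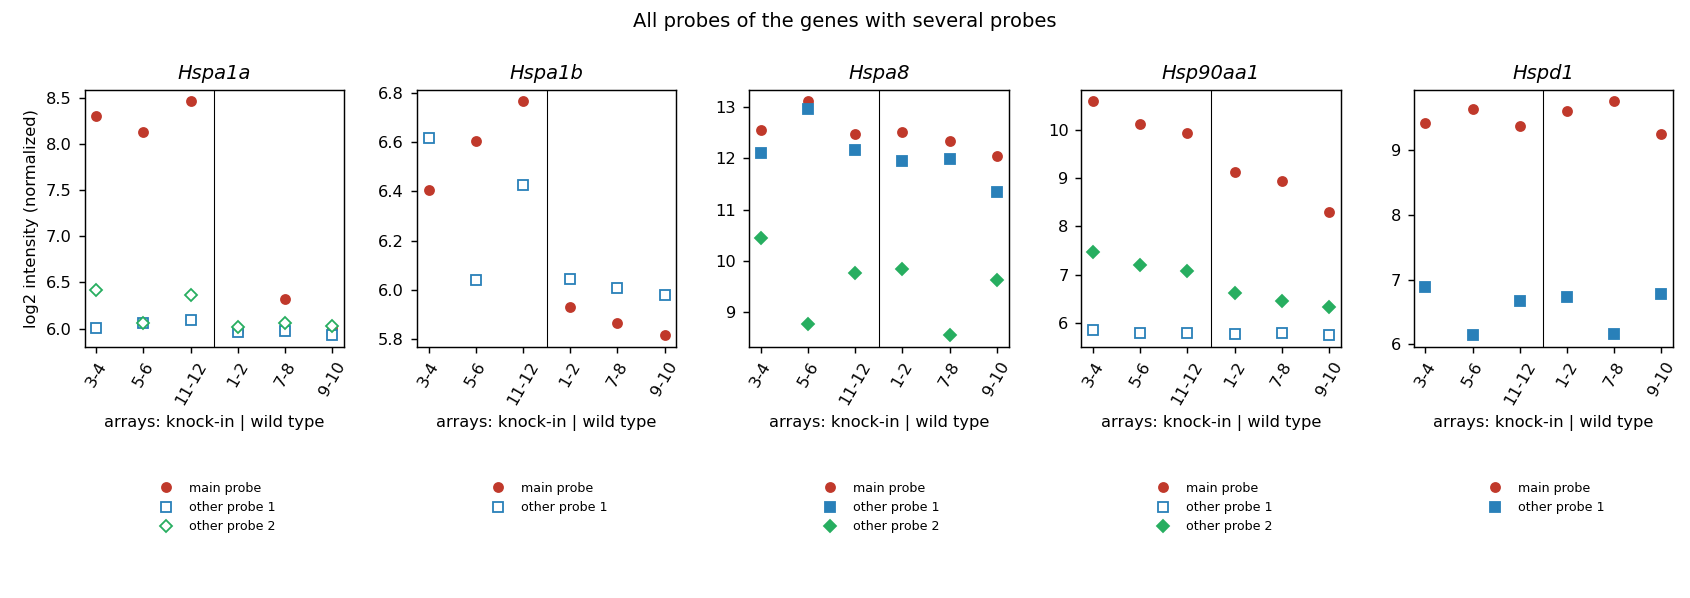
Normalized log2 intensity of every probe of the 5 genes with several probes, in 6 samples named by their arrays, knock-in left of the line and wild type right of it. Filled symbols are probes kept for the tests and open ones are mostly at background; one Hspa8 probe and one Hspd1 probe are lower in both samples of arrays 5 to 8 than in the other 4.

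Hsp90aa1 encodes the inducible cytosolic Hsp90. Its main probe had log2 values of 10.60, 10.12 and 9.94 in the knock-in samples, against 9.12, 8.94 and 8.29 in the wild type samples. The lowest knock-in sample was thus above the highest wild type sample, and in both genotypes the samples of arrays 9 to 12 were lowest. The log2 difference was 1.43 ± 0.26 (SE, n = 3 each), 2.70-fold with a 95% interval of 1.74 to 4.18, and the gene missed the threshold over all genes (limma adjusted p = 0.141). With the sets of arrays as a term it passed (limma adjusted p = 0.0267), and within them the difference was 1.47, 1.18 and 1.64. A second, dimmer probe had 7.48, 7.19 and 7.08 in the knock-in samples and 6.61, 6.45 and 6.33 in the wild type samples, also without overlap. The last of its 3 probes was above background on 0 arrays.

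Hspa8 encodes Hsc70, the constitutive cytosolic Hsp70. Its log2 values were 12.55, 13.11 and 12.46 in the knock-in samples, against 12.51, 12.33 and 12.05 in the wild type samples. The genotypes overlapped, and the knock-in sample of arrays 5 and 6 stood above the rest. The difference was 0.41 ± 0.21 (SE, n = 3 each), 1.33-fold with a 95% interval of 0.943 to 1.87 (limma adjusted p = 0.689), and within the sets 0.04, 0.77 and 0.41. The other Hspa8 probes differed by 0.65 and 0.32.

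Paralogues were compared as the difference of their log2 changes, for the 3 pairs that had probes. With 4 of 6 wild type Hspa1a arrays not above background, the change of Hspa1a was taken at the bound used above. It then exceeded the fitted change of the main Hspa8 probe by 1.71, a value that bounds the Hspa1a side only. The fitted difference was 1.79, with SDs of 0.51 over knock-in and 0.29 over wild type samples, and 2.30, 1.04 and 2.05 within the sets of arrays. The exact two-sided permutation test over 20 assignments of 3 samples against 3 gave p = 0.1, the smallest it allows, and 0.15 adjusted over the 3 pairs. The genes were chosen with earlier results of these data known, and Hspa1a passed the filter on dim probes only through the knock-in arrays. The permutation p-values given here therefore describe the pairs and support nothing. Against the other Hspa8 probes the difference was 1.55 and 1.89. For Hspa1b, above background on 0 wild type arrays, the fitted difference from Hspa8 of 0.31 is set by the floor: it lay between 0.10 and 0.50 with 1 sample left out, was -0.04 within arrays 5 to 8, and no comparison is drawn from it. The log2 difference of Hsph1 was 0.93 above that of Hspa4, its constitutive relative of the Hsp110 class, with 0.62, 1.38 and 0.80 within the sets (exact permutation p = 0.1, adjusted 0.15). Hspa4 itself had 7.03, 7.12 and 7.13 in knock-in and 7.23, 7.18 and 7.23 in wild type samples, which did not overlap in the other direction, a difference of -0.12 ± 0.085 (SE, limma adjusted p = 0.85). Without background correction the difference was 5.64 for Hspa1a, 4.35 for Hspa1b and 1.27 for Hsph1. Those of Hspa1a and Hspa1b rest on wild type values mostly at or near the floor of 1, and no comparison is drawn from them. Hsp90aa1 could not be set against its constitutive paralogue Hsp90ab1, not analysed here. The endoplasmic reticulum paralogues differed by 0.20 ± 0.12 for Hspa5, which encodes BiP, 0.15 ± 0.40 for Hsp90b1, which encodes Grp94, and 0.00 ± 0.14 for Hyou1 (SE, n = 3 each, limma adjusted p of 0.783, 0.985 and 0.999).

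**Figure D3:**
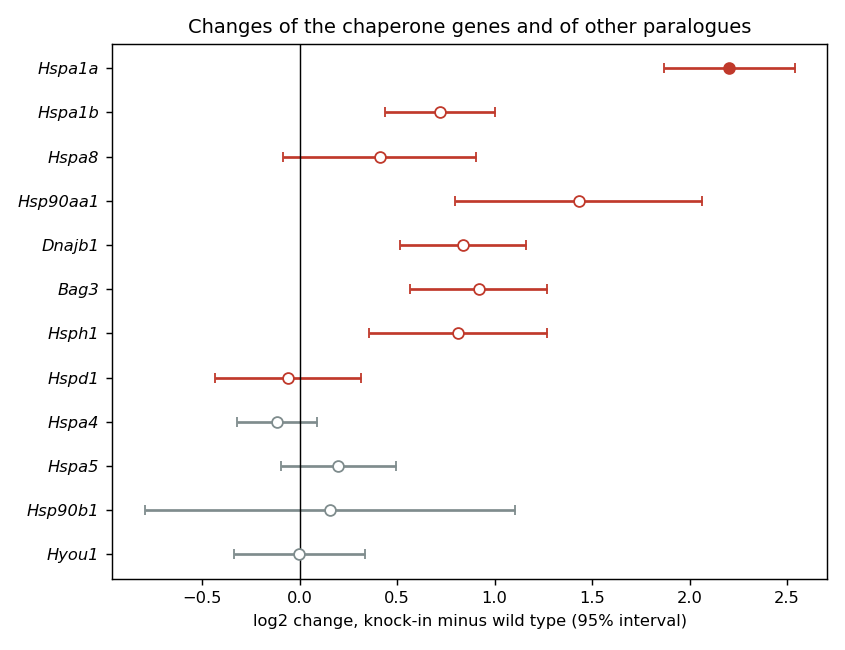
Log2 change, knock-in minus wild type, with 95% intervals from limma (n = 3 samples each) for 8 chaperone genes (red) and 4 other paralogues (grey). The filled symbol marks a limma adjusted p under 0.05, reached by Hspa1a; the intervals of Hspa8, Hspd1 and the 4 grey genes include 0, and the changes of Hspa1a and Hspa1b rest on wild type signals mostly at background.

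Of the helpers of Hsp70, Dnajb1, a J-domain protein that stimulates its ATPase, had log2 values of 11.36, 11.49 and 11.44 in the knock-in samples and 10.86, 10.43 and 10.48 in the wild type samples. The knock-in samples lay close together, with an SD of 0.07 against 0.23 in wild type. The difference was 0.84 ± 0.14 (SE), 1.79-fold with a 95% interval of 1.43 to 2.24 (limma adjusted p = 0.121, and 0.0678 with the sets of arrays as a term). Within the sets it was 0.50, 1.06 and 0.96.

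Bag3, an exchange factor that links Hsp70 to selective autophagy, had 8.97, 8.75 and 9.01 in the knock-in samples and 8.12, 7.72 and 8.13 in the wild type samples. Both samples of arrays 5 to 8 were the lowest of their genotype. It differed by 0.92 ± 0.15 (SE), 1.89-fold with a 95% interval of 1.48 to 2.41, and by 0.84, 1.03 and 0.88 within the sets. It missed the threshold over all genes (limma adjusted p = 0.121) and passed with the sets as a term (limma adjusted p = 0.0338).

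Hsph1, the exchange factor Hsp105, had 8.47, 8.76 and 8.35 in the knock-in samples and 8.06, 7.43 and 7.65 in the wild type samples. Its lowest knock-in sample was above its highest wild type sample, but the difference within the sets was uneven, at 0.42, 1.33 and 0.69. It amounted to 0.81 ± 0.19 (SE), 1.76-fold with a 95% interval of 1.28 to 2.41 (limma adjusted p = 0.229, and 0.127 with the sets as a term).

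Hspd1 encodes the mitochondrial chaperonin Hsp60. Its log2 values were 9.43, 9.65 and 9.37 in the knock-in samples and 9.61, 9.76 and 9.26 in the wild type samples, and the genotypes overlapped. The difference was -0.06 ± 0.16 (SE), 0.96-fold with a 95% interval of 0.74 to 1.24 (limma adjusted p = 0.985), and a dimmer probe differed by 0.01. Hspe1, its Hsp10 partner, differed by -0.03 ± 0.16.

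**Figure D4:**
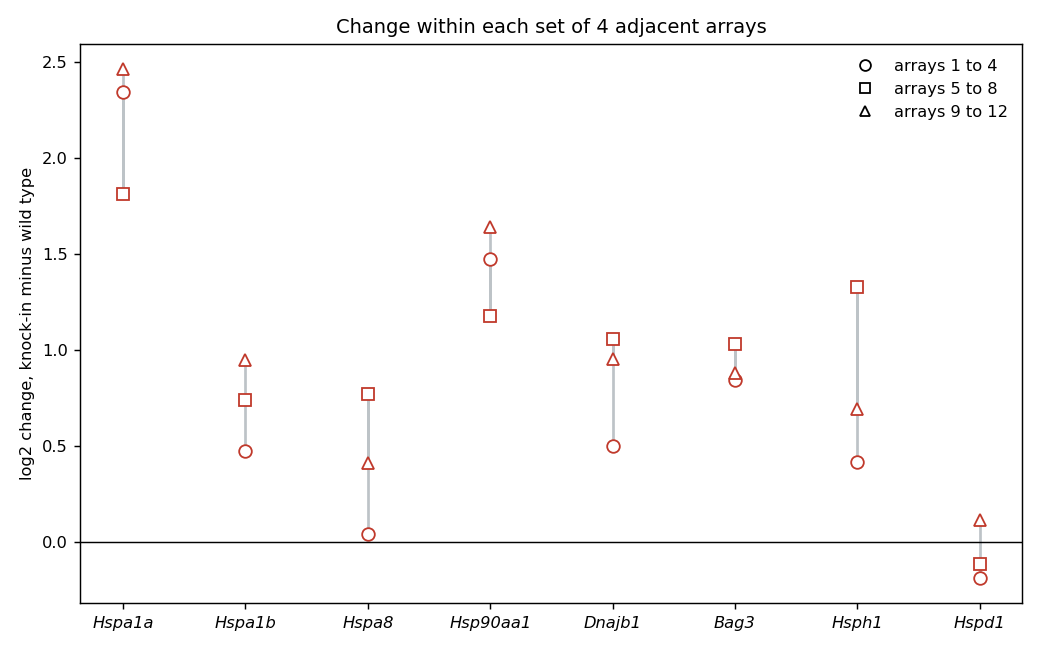
Log2 change, knock-in minus wild type, of 8 chaperone genes within arrays 1 to 4 (circles), 5 to 8 (squares) and 9 to 12 (triangles), each from 1 sample of each genotype. All 3 changes are above 0 for every gene but Hspd1, and those of Hsph1 run from 0.42 to 1.33.

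The rest of the chaperone network was counted in the same way. Of 79 other chaperone genes listed 61 were tested. Among these 0 were called in either direction, where 0.0852% of all genes were called higher and 0% lower. Of the 61, 25 were higher, where 41.6% of all genes were, and 36 lower. Their median log2 change was -0.03, as over all genes. All knock-in samples lay above all wild type samples for 4 of the 61 (St13, Bag1, Dnajc9 and Clpx) and below for 7, against 7.23% and 6.47% of all genes. With the sets of arrays as a term 1 was called, lower, where 0.266% of all genes were: Dnajc7, a co-chaperone that binds both Hsp70 and Hsp90, with 7.50, 7.45 and 7.23 in the knock-in samples and 8.48, 8.40 and 7.86 in the wild type samples (-0.85 ± 0.19 SE, limma adjusted p = 0.0493, and 0.191 without the term).

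Among 9 tested genes that are other known Hsf1 targets, 4 were higher, where 41.6% of all genes were, and 5 lower. Their changes lay between -0.22 and 0.29. The smallest p belonged to Fkbp4, an Hsp90 co-chaperone, at -0.22 ± 0.11, Hspa4l, an Hsp110 protein, at 0.29 ± 0.26, and Cacybp at 0.18 ± 0.16 (SE; limma adjusted p of 0.696, 0.909 and 0.926). Dnaja1 and the small heat shock protein Hspb1, both classical targets, were not kept for the test: Dnaja1 probes were above background on 0 arrays and an Hspb1 probe on 1.

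Over all 9388 genes tested, 3903 (41.6%) were higher and 5485 lower, and the counts by class stand beside this share. By class, 9 of 18 Hsp90 co-chaperones were higher, with a median of 0.01. St13, which joins Hsp70 to Hsp90, differed by 0.32 ± 0.09 and Nudc by -0.29 ± 0.10 (SE; limma adjusted p of 0.297 and 0.402). Of 10 other J-domain proteins 5 were higher. Of 6 other Bag proteins and exchange factors 2 were higher, with Bag1 at 0.32 ± 0.11 (limma adjusted p = 0.452). Of 10 other mitochondrial chaperones 8 were lower, with Trap1, the mitochondrial Hsp90, at -0.32 ± 0.11 (limma adjusted p = 0.431). Of 8 subunits of TRiC, the cytosolic chaperonin, 6 were lower, with Cct3 at -0.21 ± 0.09 (limma adjusted p = 0.575). The tested small heat shock proteins, Cryab, Hspb6 and Hspb8, differed by 0.09, 0.00 and 0.02, and Hsf2, a second heat shock factor, by 0.04.

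**Figure D5:**
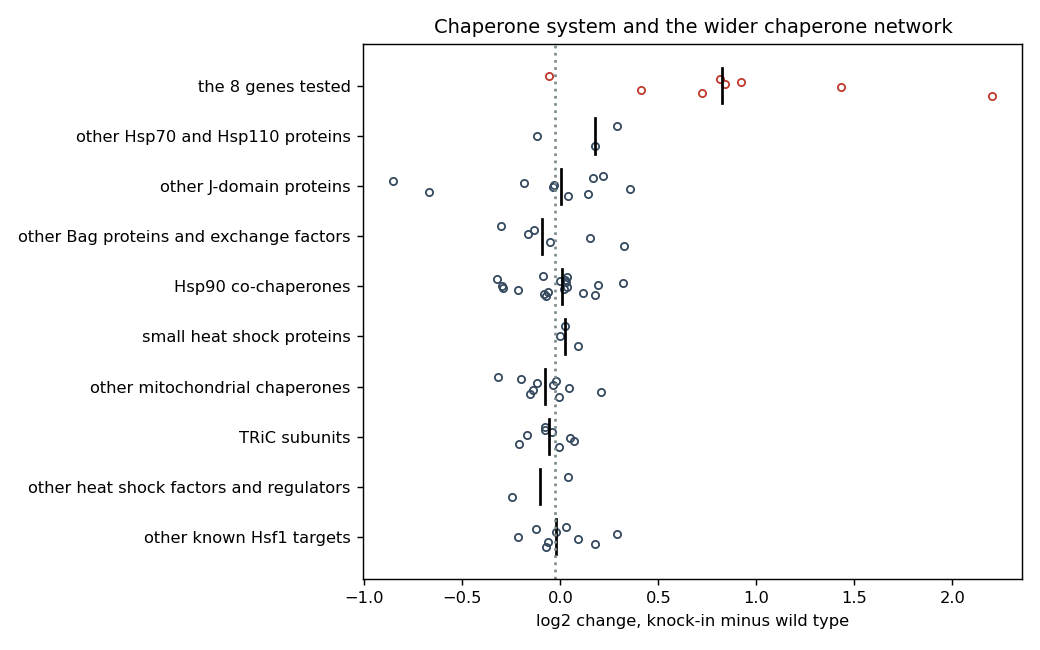
Log2 change, knock-in minus wild type, of the 8 chaperone genes tested (red) and of genes in 9 lists of the wider chaperone network (dark). Each circle is a gene, the bar is the median of its list and the dotted line the median of all 9388 genes; the medians of the 9 lists lie between -0.10 and 0.18, that of the 8 genes at 0.82, and some genes stand in 2 lists.

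Immediate early genes, which answer stimuli and cell handling within a short time, were measured beside the chaperones. Of 13 tested 0 were called, where 0.0852% of all genes were called higher and 0% lower. Of the 13, 9 were higher, where 41.6% of all genes were. The 4 lower ones were Fos, Klf2, Zfp36 and Jun. In 3 (Dusp1, Jund and Ier3) every knock-in sample lay above every wild type sample, as for 7.23% of all genes. Dusp1, a phosphatase of MAP kinases, had 10.83, 11.38 and 10.95 in the knock-in samples and 9.91, 10.29 and 10.06 in the wild type samples (0.97 ± 0.18 SE, limma adjusted p = 0.141, and 0.0302 with the sets as a term). The median of the 13 was 0.10. The summed level of all 18 with a probe, in the authors' values, ran from 4458 to 9846 in knock-in and from 2812 to 7488 in wild type samples. These ranges overlapped, but within each set of 4 arrays the knock-in sum was higher, with 4458 against 2812, 9846 against 7488 and 4754 against 4684. The genes did not move together. In arrays 9 to 12 Dusp1 had 1916 in knock-in against 1009, while Fos had 236 against 599 and Zfp36 491 against 914. Nr4a1 was above the limit on 0 arrays. Their part in the chaperone differences was not tested, and in bulk RNA of sorted cells fewer cells of a type and less RNA per cell cannot be told apart.

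The genes whose log2 values ran most closely with Hspa1a over the 6 samples were Spty2d1, Slc19a2, Samd8, Sap30 and Rc3h1, with Pearson correlations of 0.98 to 0.99. These 6 points share the 2 genotypes and the arrays, so the correlations largely restate which genes are apart between knock-in and wild type. Spty2d1 had 6.81, 6.73 and 6.75 in the knock-in samples and 6.04, 6.06 and 5.91 in the wild type samples. Samd8 had 6.14, 6.14 and 6.15 against 6.05, 6.08 and 6.06, a change of 0.08 on a dim probe.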

How the data were processed

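Total RNA was labelled as biotinylated cRNA for Illumina arrays, per the labels' protocols, and the submitters' processing notes name GenomeStudio without a version. The main table the authors deposited holds intensity values not normalized between arrays, from which background had been subtracted before deposit, since 33.1% to 37.0% of values per array are below 0; a second deposited table of processed intensity values, with 1 distribution for all arrays, served as an alternative and for summed marker levels. Intensities were corrected with limma's normexp (offset 50), quantile-normalized and taken to log2, which understates folds of dim genes. Kept were 16894 probes above a limit, the 90th percentile of mirrored negative values (6.6 to 7.7 intensity units), on at least 6 of 12 arrays; 9388 genes stood for 14317 of them with 1 symbol, each by its brightest probe. Duplicate arrays were averaged, and limma 3.58.1 (R 4.3.3) tested each gene, with Benjamini-Hochberg adjustment over all genes at 0.05. The code was tested on simulated data. Sequences are RefSeq's (GRCm38.p6). Figures were drawn with matplotlib 3.10.9.

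Members and lists were chosen with earlier results of these data known. Named are the 10 members, Hspa4 and 3 endoplasmic reticulum paralogues whatever their result, up to 3 genes per list with the smallest p, and the 5 genes closest to Hspa1a. Dnajc9, Clpx, Hspe1, Dnaja1, Hspb1, the immediate early genes and marker genes at background were named after their values were seen. The planned comparison of Hsp90aa1 with Hsp90ab1 was not made, since no probe is named for Hsp90ab1. Alternatives were no background correction and the authors' values (both floored at 1), cyclic loess, 75th percentile scaling, no filter or all 12 arrays above the limit, averaging the probes of a gene, 12 single arrays, pairs as a random block, sets of 4 adjacent arrays as a term, and each sample left out.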

Additional observations from a re-analysis of the deposited data

How the results depend on the processing

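The 8 genes called became 14 when background was left uncorrected and 14 in the authors' processed values, 860 with 12 arrays as 12 samples, 283 with pairs as a random block and 88 with blocks of 4 adjacent arrays as a term; with 1 sample left out they numbered 0 to 6. The difference between the changes of Hspa1b and Hspa8 turned to -0.036 within arrays 5 to 8, with wild type Hspa1b at background. That of Hspd1, never called, turned to 0.17 under 75th percentile scaling and lay between -0.20 and 0.049 with 1 sample left out. Log2 changes of the other 7 genes kept their sign under every setting in which they were tested; with 1 sample left out they lay between 0.21 and 2.31, and only Hspa1a was called, in 3 of 6 cases. Hspa1a and Hspa1b could not be tested with the filter on all 12 arrays. With the pairs as a random block, Hspa1b, Hsp90aa1, Dnajb1, Bag3 and Hsph1 passed (limma adjusted p of 0.044, 0.000968, 0.00175, 0.00203 and 0.00748), in a fit in which the 12 arrays share 1 estimated correlation. The causes of these shifts were not tested. The genotypes share no replicate numbers, and the only pairing made was that by the blocks of 4 adjacent arrays. The dim Hspa1a and Hspa1b signals in wild type set only lower bounds of their folds.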

Other observations

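For Hspa8 and Hspd1, 1 probe did not follow the main probe of its gene in the samples of arrays 5 to 8. For Hspa8, a second probe lay below the main probe by log2 values of -4.33 in the knock-in sample of arrays 5 and 6 and -3.78 in the wild type sample of arrays 7 and 8, against -2.71 to -2.10 in the other 4 samples. For Hspd1 the same measure was -3.50 and -3.60, against -2.88 to -2.48. Other kept probes were not lower there. The remaining Hspa8 probe had -0.14 and -0.35, against -0.71 to -0.30, and the second Hsp90aa1 probe -2.93 and -2.49, against -3.12 to -1.96. Over all 4929 second probes of tested genes, 136 (2.76%) were lower than the main probe of their gene in both of these samples, beyond the other 4 by more than 0.5, while 2 (0.0406%) were so in arrays 1 to 4 and 7 (0.142%) in arrays 9 to 12. In the other direction, 36 (0.73%) were higher by that margin in arrays 5 to 8, 0 in arrays 1 to 4 and 12 (0.243%) in arrays 9 to 12. Both genotypes are among arrays 5 to 8. For the second Hspa1a and Hspa1b probes, mostly at background in wild type, a lower signal there could be seen in knock-in alone. On knock-in arrays 5 and 6 they read 6.3 and 6.2 for Hspa1a and 3.7 and 6.5 for Hspa1b. The other knock-in arrays read 14.8 to 27.3 and 12.2 to 49.6. The pattern was noticed in these data, and neither its cause nor its part in the comparison was tested.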
